A study of Mus musculus with 6 samples.

Results

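The genes described here encode the subunits, carriers and assembly factors of 3 complexes of oxidative phosphorylation: succinate dehydrogenase (complex II), the cytochrome bc1 complex (complex III) and ATP synthase (complex V). They were chosen by name from the expression table of newborn mouse interscapular brown fat, as every symbol beginning with Sdha, Sdhb, Sdhc, Sdhd, Uqcr or Atp5, together with Cyc1, Cycs and Bcs1l. There were 36 such genes among 19241, and all 36 entered the test of 13331 genes. Of the 36, 28 encode subunits: 4 of complex II, 9 of complex III and 15 of complex V. The remaining 8 are the complex II assembly factors Sdhaf1 to Sdhaf4, the complex III chaperone Bcs1l, the electron carrier Cycs, and Atp5s and Atp5sl, which carry the ATP synthase name without being core subunits.

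Bulk RNA from the whole depot was sequenced in 6 libraries of newborn mice, 3 per genotype. WT mice carried the floxed Fstl1 gene, and KO mice are labelled as lacking Fstl1, which encodes a secreted glycoprotein, in the Myf5 lineage, from which skeletal muscle and much of the depot descend. The labels name neither the recombinase allele nor the sex, and do not say whether the libraries came from separate animals, so the p-values measure only the spread between these libraries. The targeted gene, Fstl1, was between 54.4 and 130.04 FPKM (fragments counted per unit of transcript length and of sequencing depth) in WT and between 7.93 and 13.1 FPKM in KO. Xist was at 44.8 to 85.5 FPKM in WT and at 0.05 to 0.92 FPKM in KO, and the Y-linked gene Eif2s3y at no more than 0.08 FPKM in WT and at 83.7 to 99.3 FPKM in KO, so genotype and sex cannot be told apart. All 14 brown adipocyte markers were detected, with a log2 fold change below 0 in 10 and above 0 in 4. Limma called 4 of the 14 past an adjusted p of 0.05, each lower in KO, where it called 2.21% of all tested genes. The groups did not overlap in 7 of the 14 (50%), each lower in KO, against 24.9% of all tested genes. These 7 were Elovl3, Otop1, Plin1, Plin5, Prdm16, Ucp1 and Ebf2, with KO means from 17.6% to 48.9% of the WT means. The 14 summed to 21930 to 27720 FPKM in WT and 21220 to 23100 FPKM in KO. Most of each sum was Fabp4, at 14059 to 17389 FPKM in WT and 14000 to 15846 FPKM in KO. The 13 skeletal muscle markers summed to 1607 to 2355 FPKM in WT, and to 431, 1760 and 2103 FPKM in KO replicates 1, 2 and 3. All 13 had a log2 fold change below 0, with a median of −0.67. Limma called 0 of these 13, and the groups overlapped in each. The 9 macrophage markers were all higher in KO, with sums of 138 to 205 FPKM in WT and 194 to 267 FPKM in KO and a median log2 fold change of 0.41. Of the 9, limma called 0 and 4 (44.4%) had an unadjusted p under 0.05, where 19.2% of all tested genes did. The part of these cells in the results was not tested. In such bulk samples fewer cells of a type and less RNA per cell cannot be told apart.

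Complex II oxidizes succinate to fumarate in the citric acid cycle and passes the electrons to ubiquinone. Complex III takes electrons from ubiquinol, hands them to cytochrome c and pumps protons, and ATP synthase lets protons flow back through a rotating ring of c subunits to drive ATP formation in its F1 head. Brown fat mitochondria are rich in respiratory chain and poor in ATP synthase, and uncoupling protein 1 lets protons return without ATP synthesis. The low ATP synthase content of this tissue has been tied to low expression of one c-subunit gene, Atp5g1, in the adult tissue.

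No gene of the 3 complexes passed the threshold between KO and WT. At an adjusted p of 0.05 limma called 0 of 36, where it called 2.21% of all tested genes. At an unadjusted p under 0.05 there was 1 of 36, the complex II assembly factor Sdhaf1, against 19.2% of all tested genes. The values of KO and WT did not overlap in 6 of 36 genes (16.7%), against 24.9% of all tested genes. These 6 were Sdhaf1, Sdhaf2, Sdhd, Cycs and Atp5a1, lower in KO, and Atp5s, higher. The fitted log2 fold change on log2(FPKM + 1) was below 0 in 27 of the 36, where 48.4% of all tested genes were below 0, and its median was −0.10 against 0.01 for all tested genes. The count below 0 was 17 of 36 without WT replicate 3, and 22 of 36 with the libraries rescaled to a common FPKM sum. The fold changes ran from −0.67 for Sdhaf1 to 0.29 for Atp5s. A missed threshold does not show that the genes were alike in KO and WT. The 95% intervals bound the differences: for 35 of the 36 genes the interval lay above a log2 change of −1, Sdhaf1 being the exception, and for 23 it lay within a 1.5-fold change either way.

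**Figure D1:**
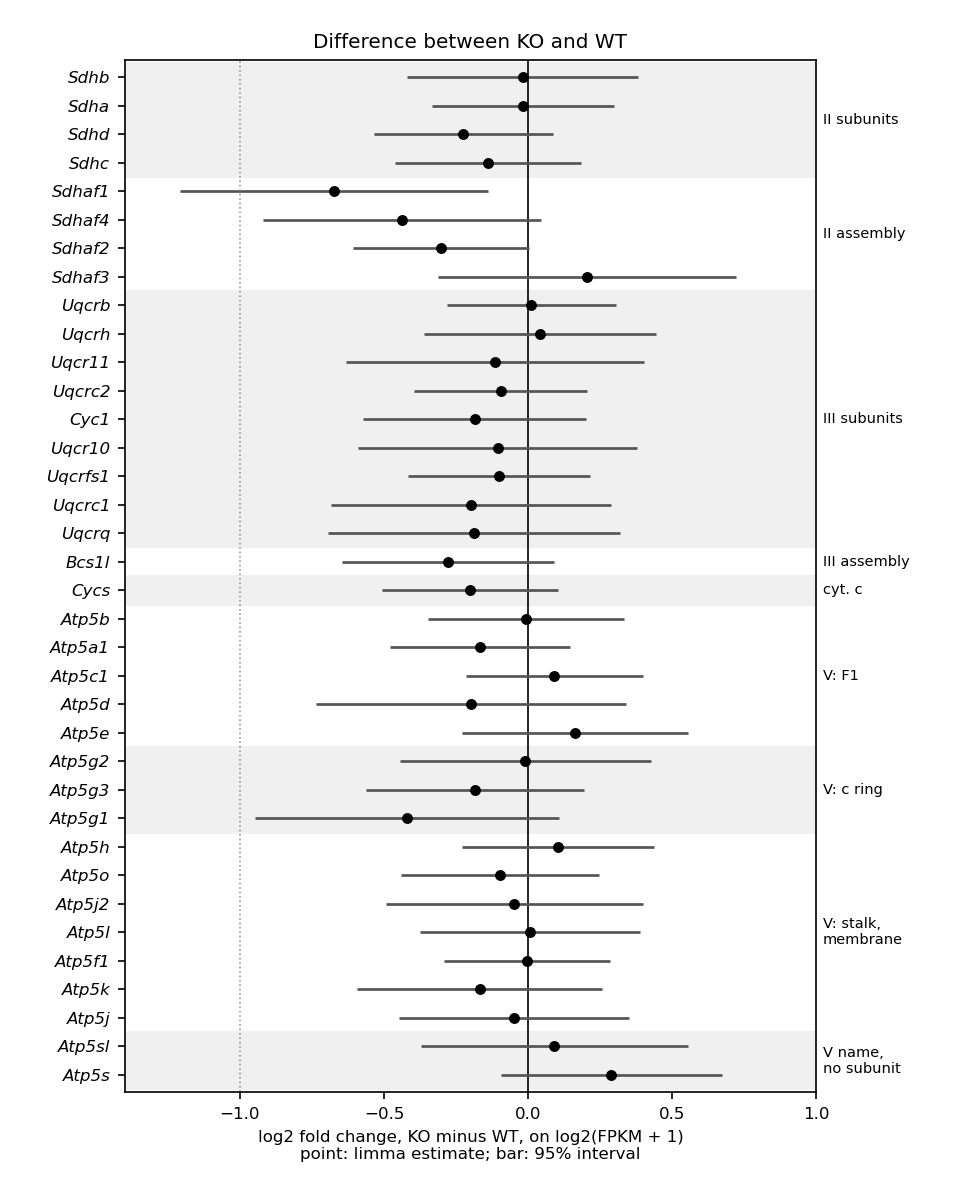
Log2 fold change of each of the 36 genes, KO minus WT, on the log2(FPKM + 1) scale (x axis), grouped by complex (y axis); points are limma estimates, bars are 95% intervals and the dotted line marks −1. Only the interval of Sdhaf1 (−1.21 to −0.14) lies wholly on one side of 0, before adjustment for the number of genes tested.

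The levels spanned more than 2 orders of magnitude, and nearly all subunit genes lay above the assembly factors. The catalytic beta subunit gene of ATP synthase, Atp5b, had the highest level of the 36, with a mean of 2932 FPKM over the 6 libraries, followed by the small complex III subunit gene Uqcrb with 2267 FPKM. Atp5a1 (1476 FPKM), Atp5h (1444 FPKM), Atp5o (1420 FPKM) and Uqcrh (1371 FPKM) came next, and their libraries overlapped. Among subunits, Atp5g1 was lowest with 41.0 FPKM, and the next lowest, Atp5g3, was at 262 FPKM. Cycs, at 805 FPKM, lay among the subunits. The other 7 genes that encode no subunit lay between 10.1 FPKM (Atp5s) and 57.5 FPKM (Sdhaf1). FPKM is scaled by transcript length, so these are per-length levels.

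**Figure D2:**
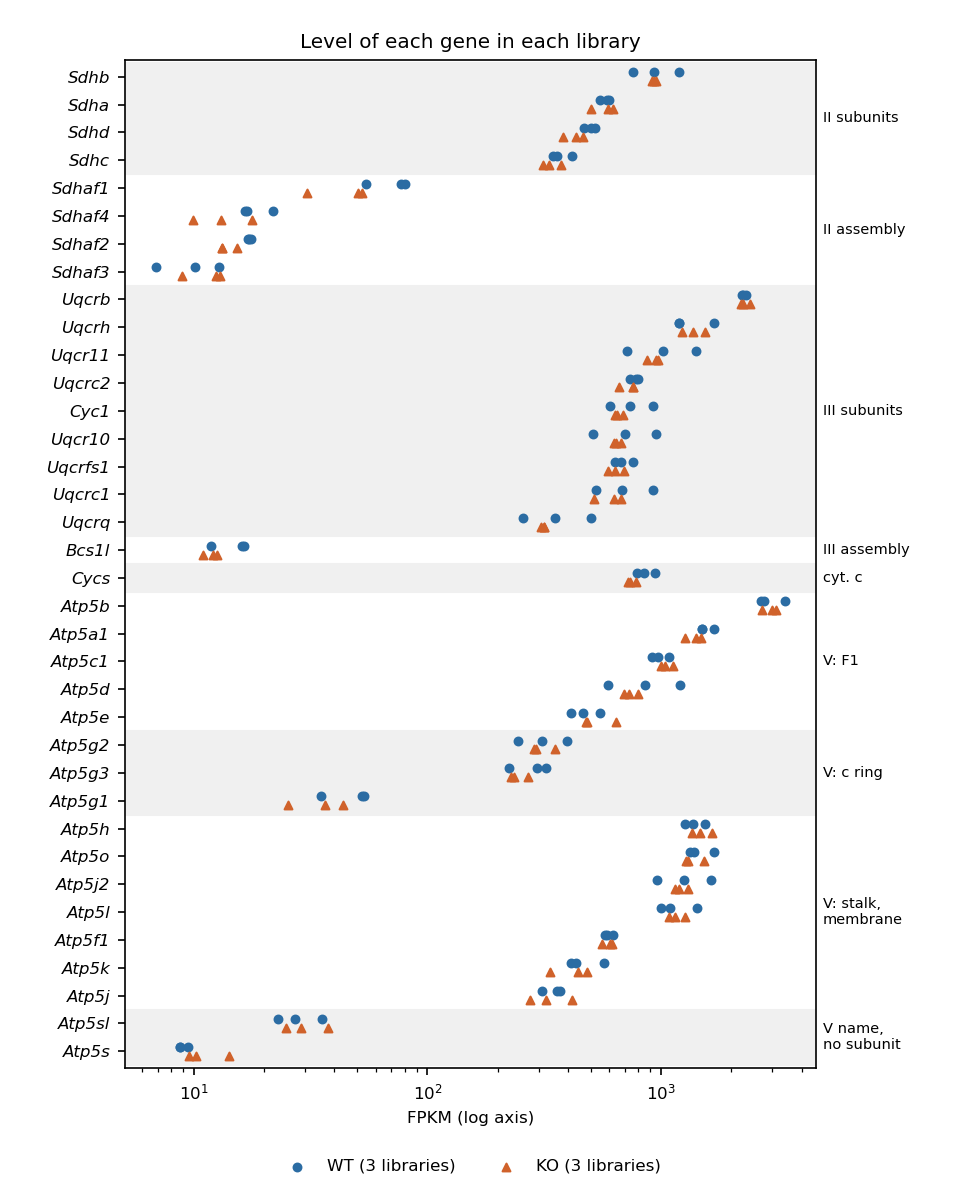
FPKM of each gene (log x axis) in the 3 WT libraries (circles) and the 3 KO libraries (triangles), grouped by complex and role (y axis). Subunit genes lie at 224 FPKM or higher except Atp5g1 (25.4 to 53.7 FPKM), and assembly factors lie below 81 FPKM.

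In complex II, the widest fitted differences were those of 3 assembly factors, and none passed. Sdhaf1, which helps to insert the iron-sulfur clusters of the SDHB subunit, measured 54.4, 80.2 and 77.0 FPKM across WT replicates 1 to 3, against 52.7, 50.2 and 30.4 FPKM across KO replicates 1 to 3. KO replicate 3 was the lowest library, and the groups were separated by a narrow gap. Its KO mean was 63.0% of the WT mean, −0.67 log2 units by limma (standard error 0.24, adjusted p 0.174). Leaving out KO replicate 3 gave −0.43 log2 units by limma (adjusted p 0.363).

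Sdhaf2, the factor needed to attach the flavin cofactor to SDHA, measured 17.6, 17.3 and 17.1 FPKM across the WT libraries, against 15.3, 13.2 and 13.2 FPKM across the KO libraries. The WT libraries were nearly level and each KO library was below them (−0.30 log2 units by limma, standard error 0.13, adjusted p 0.263). Sdhaf4, an assembly factor for the SDHA subunit, measured 16.9, 22.0 and 16.6 FPKM across the WT libraries, against 13.1, 17.8 and 9.94 FPKM across the KO libraries. KO replicate 2 lay within the WT values (−0.44 log2 units by limma, standard error 0.21, adjusted p 0.305). For Sdhaf4 the value was −0.25 without KO replicate 3. Sdhaf3, which acts with Sdhaf1, measured 6.91, 12.9 and 10.1 FPKM across the WT libraries, against 12.9, 12.5 and 8.94 FPKM across the KO libraries, so the groups overlapped (0.21 log2 units by limma, standard error 0.23, adjusted p 0.666). The median log2 fold change was −0.37 over the 4 assembly factors and −0.08 over the 4 subunits, and the difference between these medians was not tested.

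The 4 subunits of complex II had log2 fold changes between −0.22 and −0.02. Sdhb, the iron-sulfur subunit and the highest of complex II, measured 761, 933 and 1199 FPKM across the WT libraries, against 955, 920 and 932 FPKM across the KO libraries. The 3 KO libraries lay inside the WT range (−0.02 log2 units by limma, standard error 0.18, adjusted p 0.970). Sdha, the flavoprotein that holds the succinate site, had means of 579 ± 24.8 FPKM in WT and 574 ± 62.7 FPKM in KO (SD, n = 3 each). The membrane anchors were Sdhc, with 374 ± 38.3 and 340 ± 31.1 FPKM, and Sdhd, with 497 ± 28.4 and 426 ± 40.8 FPKM. Sdhd measured 468, 500 and 524 FPKM across the WT libraries, against 463, 434 and 382 FPKM across the KO libraries. Its groups did not overlap, and its log2 fold change of −0.22 did not pass (limma, SE 0.14, adjusted p 0.411).

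In complex III, 7 of 9 subunit genes had a fold change below 0 and 2 above, with a median log2 fold change of −0.10, and in none of the 9 were the groups apart. Without WT replicate 3, 3 of the 9 were below 0. Uqcrb, the ubiquinone-binding small subunit, was close to level: it measured 2225, 2241 and 2305 FPKM across the WT libraries, against 2394, 2238 and 2200 FPKM across the KO libraries (0.01 log2 units by limma, standard error 0.13, adjusted p 0.975). Cyc1, the cytochrome c1 subunit that hands electrons to cytochrome c, measured 607, 738 and 924 FPKM across the WT libraries, against 688, 634 and 646 FPKM across the KO libraries. The KO libraries lay close together inside a wide WT range (−0.18 log2 units by limma, standard error 0.17, adjusted p 0.597). For Cyc1 the value was −0.03 without WT replicate 3 and −0.33 without WT replicate 1. Uqcrfs1, the Rieske iron-sulfur protein, had means of 687 ± 62.1 FPKM in WT and 641 ± 52.4 FPKM in KO (SD, n = 3 each). The core proteins were Uqcrc1, with 712 ± 202 and 609 ± 83.3 FPKM, and Uqcrc2, with 773 ± 31.1 and 725 ± 55.9 FPKM. The remaining small subunits Uqcrh, Uqcrq, Uqcr10 and Uqcr11 had log2 fold changes of 0.04, −0.19, −0.10 and −0.11, each with a standard error of 0.18 to 0.23.

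Bcs1l, the AAA chaperone that places the Rieske protein in complex III, measured 11.9, 16.4 and 16.1 FPKM across the WT libraries, against 12.6, 11 and 12.1 FPKM across the KO libraries. WT replicate 1 lay among the KO values (−0.28 log2 units by limma, standard error 0.16, adjusted p 0.390). Cycs, the soluble cytochrome c, measured 947, 792 and 847 FPKM across the WT libraries, against 785, 722 and 738 FPKM across the KO libraries. Each KO library was below each WT library, by as little as 785 against 792 FPKM, and the KO mean was 86.8% of the WT mean (−0.20 log2 units by limma, standard error 0.14, adjusted p 0.455). Its highest value was in WT replicate 1. With each library's trend with transcript length and GC content removed, its log2 fold change was −0.34 (limma, SE 0.12, adjusted p 0.130). Cycs and several small subunits have processed copies elsewhere in the genome, and how reads were divided among copies is not given in the sources used here.

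In ATP synthase, 11 of 15 subunit genes had a fold change below 0 and 4 above, with a median log2 fold change of −0.05. The count below 0 was 6 of 15 without WT replicate 3, and 8 of 15 without KO replicate 3 or with a common FPKM sum. In the F1 head, Atp5b measured 2688, 2763 and 3381 FPKM across the WT libraries, against 2974, 2694 and 3093 FPKM across the KO libraries, and the groups overlapped throughout (−0.01 log2 units by limma, standard error 0.15, adjusted p 0.989). Its 95% interval ran from −0.35 to 0.33. Atp5a1, the alpha subunit, measured 1504, 1491 and 1684 FPKM across the WT libraries, against 1415, 1272 and 1486 FPKM across the KO libraries, so each KO library was below each WT library by a small gap (−0.17 log2 units by limma, standard error 0.14, adjusted p 0.549). The central stalk genes Atp5c1 (gamma), Atp5d (delta) and Atp5e (epsilon) had log2 fold changes of 0.09, −0.20 and 0.16 and overlapped between groups.

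The peripheral stalk genes Atp5f1 (b), Atp5h (d), Atp5j (F6) and Atp5o (the oligomycin sensitivity subunit), which hold the head still against the rotor, had log2 fold changes of −0.003, 0.10, −0.05 and −0.10. Atp5f1 was nearly level in both groups, at 595 ± 25.4 FPKM in WT and 593 ± 29 FPKM in KO (SD, n = 3 each). The small membrane subunits Atp5j2 (f), Atp5k (e) and Atp5l (g), of which e and g take part in joining ATP synthases into dimers, had log2 fold changes of −0.05, −0.17 and 0.01. Atp5s, also called Dmac2l, measured 9.41, 8.70 and 8.77 FPKM across the WT libraries, against 9.57, 14.2 and 10.2 FPKM across the KO libraries (0.29 log2 units by limma, standard error 0.17, adjusted p 0.392). Its groups did not overlap, with KO replicate 1 close to WT replicate 1. Atp5sl, also called Dmac2 and named as a complex I assembly factor, had means of 28.5 ± 6.34 FPKM in WT and 30.4 ± 6.43 FPKM in KO (SD, n = 3 each).

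Of the 3 genes of the c ring of ATP synthase, Atp5g1 had the smallest share of FPKM in every library. Atp5g1, Atp5g2 and Atp5g3 encode precursors whose import sequences differ and whose mature c subunits are the same. By translation of their annotated coding sequences, the last 78 residues were identical in all 3, after 58, 68 and 63 residues that were not all shared. The coding bases of that shared part are given because the genes differ in letters where the protein is the same. Each is written 5′ to 3′ from the GENCODE vM21 transcripts, without the stop codon, and capitals mark bases that differ from Atp5g1.
Atp5g1: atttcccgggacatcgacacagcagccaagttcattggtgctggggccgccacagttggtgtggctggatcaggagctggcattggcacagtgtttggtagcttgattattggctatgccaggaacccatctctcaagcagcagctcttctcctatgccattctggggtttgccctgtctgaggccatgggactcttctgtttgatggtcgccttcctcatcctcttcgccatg
Atp5g2: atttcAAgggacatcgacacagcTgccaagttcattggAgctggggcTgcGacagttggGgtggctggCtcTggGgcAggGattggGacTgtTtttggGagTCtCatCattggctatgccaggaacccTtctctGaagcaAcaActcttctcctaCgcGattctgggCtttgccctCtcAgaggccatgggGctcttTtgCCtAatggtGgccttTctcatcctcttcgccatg
Atp5g3: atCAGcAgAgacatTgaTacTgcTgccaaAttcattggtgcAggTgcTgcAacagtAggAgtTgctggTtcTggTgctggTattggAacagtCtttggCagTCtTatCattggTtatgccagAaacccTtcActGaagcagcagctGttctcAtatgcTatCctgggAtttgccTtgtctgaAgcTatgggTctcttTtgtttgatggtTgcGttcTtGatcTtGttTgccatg
Of 234 bases, Atp5g2 differed from Atp5g1 at 36 (84.6% identity) and Atp5g3 at 50 (78.6%), and Atp5g2 differed from Atp5g3 at 53 (77.4%). The longest identical run between 2 whole coding sequences was 21 bases, between Atp5g1 and Atp5g2. On GRCm38.p6, Atp5g1 lies on chromosome 11 from 96072793 to 96075694, Atp5g2 on chromosome 15 from 102662868 to 102671047 and Atp5g3 on chromosome 2 from 73908447 to 73912464.

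Atp5g2 measured 244, 311 and 397 FPKM across the WT libraries, against 291, 352 and 287 FPKM across the KO libraries (−0.01 log2 units by limma, standard error 0.19, adjusted p 0.987). Atp5g3 measured 224, 294 and 322 FPKM across the WT libraries, against 229, 270 and 234 FPKM across the KO libraries (−0.18 log2 units by limma, standard error 0.17, adjusted p 0.591). For Atp5g3 the value was −0.08 without WT replicate 3 and −0.34 without WT replicate 1. Both overlapped between the groups. Atp5g1 measured 35.0, 53.7 and 52.3 FPKM across the WT libraries, against 25.4, 36.5 and 43.4 FPKM across the KO libraries. Its KO mean was 74.6% of the WT mean, and KO replicates 2 and 3 lay above WT replicate 1 (−0.42 log2 units by limma, standard error 0.23, adjusted p 0.365). KO replicate 1 was the lowest library for Atp5g1 and also for the summed muscle markers, at 431 FPKM against 1607 to 2355 FPKM in the other 5, whose part in the result was not tested. Without KO replicate 1 the log2 fold change of Atp5g1 was −0.21 (limma, adjusted p 0.699).

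Of the summed FPKM of the 3 c-ring genes, Atp5g1 held 6.95%, 8.16% and 6.79% in WT and 4.65%, 5.53% and 7.70% in KO. The means were 7.30% ± 0.75 in WT and 5.96% ± 1.57 in KO (SD, n = 3 each), with KO replicate 3 inside the WT values, so the shares overlapped. Atp5g2 held 49.0% ± 2.2 in WT and 52.6% ± 1.51 in KO, and Atp5g3 held 43.7% ± 1.66 and 41.5% ± 0.45 (SD, n = 3 each). The 3 genes together summed to 503 to 770 FPKM, and Atp5b alone was 4.09 to 5.48 times as high in every library. The level of Atp5g1 depends on the transcript length the authors used, which is not given: its annotated coding transcripts run from 596 to 4715 nt, against 441 to 753 nt for Atp5g2 and 714 to 723 nt for Atp5g3, and a longer model would lower its FPKM.

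**Figure D3:**
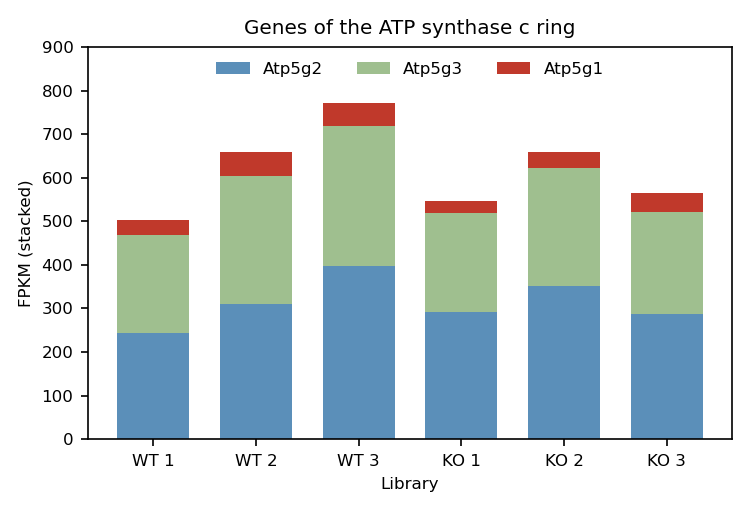
Stacked FPKM (y axis, from 0) of the 3 c-ring genes in each of the 6 libraries (x axis). Atp5g1 is the thin top band, 4.65% to 8.16% of each bar, and the bars run from 503 FPKM in WT replicate 1 to 770 FPKM in WT replicate 3.

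The proportions of the 3 complexes overlapped between the groups. The summed FPKM of complex V subunits was 1.61 to 1.68 times that of complex III subunits in WT and 1.62 to 1.77 times in KO. Complex II subunits summed to 0.266 to 0.291 of complex III in WT and to 0.270 to 0.287 in KO. These sums cover only the subunit genes that the naming rule gives. The complex V membrane subunits Usmg5 and 2010107E04Rik, described below, are not in them. The median log2 fold changes were −0.08 for complex II, −0.10 for complex III and −0.05 for complex V, while the medians of single libraries varied around their group means with an SD of 0.11, 0.22 and 0.17. All 36 genes together made up 4.77%, 4.88% and 5.48% of the summed FPKM in WT replicates 1, 2 and 3 and 5.06%, 4.88% and 4.89% in KO.

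The 3 WT libraries differed from each other more than the 3 KO libraries did in the medians of complexes III and V. Relative to each gene's mean over the 6 libraries, the median complex III subunit was at −0.20 in WT replicate 1, 0.06 in WT replicate 2 and 0.40 in WT replicate 3 on the log2 scale, and between −0.13 and −0.02 in KO. For complex V the 3 WT values were −0.18, −0.02 and 0.25 and the KO values ran from −0.08 to 0.11. For complex II they were −0.01, 0.001 and 0.21, and −0.10 to 0.05 in KO. For complexes III and V, WT replicate 3 was thus the highest library and WT replicate 1 the lowest; for complex II, WT replicate 3 was highest and KO replicates 2 and 3 were lowest. The direction of the complex III and V medians depended on which WT library was left out: without WT replicate 1 they were −0.19, −0.33 and −0.16 for complexes II, III and V, and without WT replicate 3 they were −0.03, 0.03 and 0.06. In both cases limma called 0 of the 36 genes.

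The contrast between WT replicates 3 and 1 went with base composition. It was widest for Atp5d, which was 2.05 times as high in WT replicate 3 and has 61.1% GC, for Uqcr11 (1.98 times, 58.9% GC), Uqcrq (1.96 times, 50.2% GC) and Uqcr10 (1.87 times, 55.5% GC). It was near or below 1 for Uqcrb (1.04 times, 42.2% GC), Uqcrc2 (1.02 times, 44.4% GC), Atp5f1 (0.944 times, 49.1% GC) and Cycs (0.895 times, 40.8% GC). Across the 36 genes the log2 ratio of the 2 libraries correlated with GC content at r = 0.72 and with log2 transcript length at r = −0.32. Across 13196 tested genes these were 0.57 and −0.33. Genes are not independent replicates and share both libraries, so these are descriptions. Other genes of at most 1200 nt and at least 50% GC, 1063 in number, had medians of −0.21, 0.09 and 0.22 in WT replicates 1, 2 and 3.

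With each library's trend with length and GC removed, the complex III medians were −0.06, 0.01 and 0.19 in WT and −0.14 to 0.04 in KO, and the complex V medians −0.09, −0.07 and 0.12 in WT and −0.05 to 0.05 in KO. WT replicate 3 stayed the highest library for each complex. The 7 red cell markers were also highest there, with a sum of 14390 FPKM against 3378 and 5063 FPKM in the other WT libraries and 3070 to 3956 FPKM in KO, and their part in the result was not tested. The median of the 28 subunits was −0.03 in KO replicate 1, where the muscle sum was low, −0.02 in KO replicate 2 and −0.08 in KO replicate 3, and the part of muscle RNA was not tested.

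**Figure D4:**
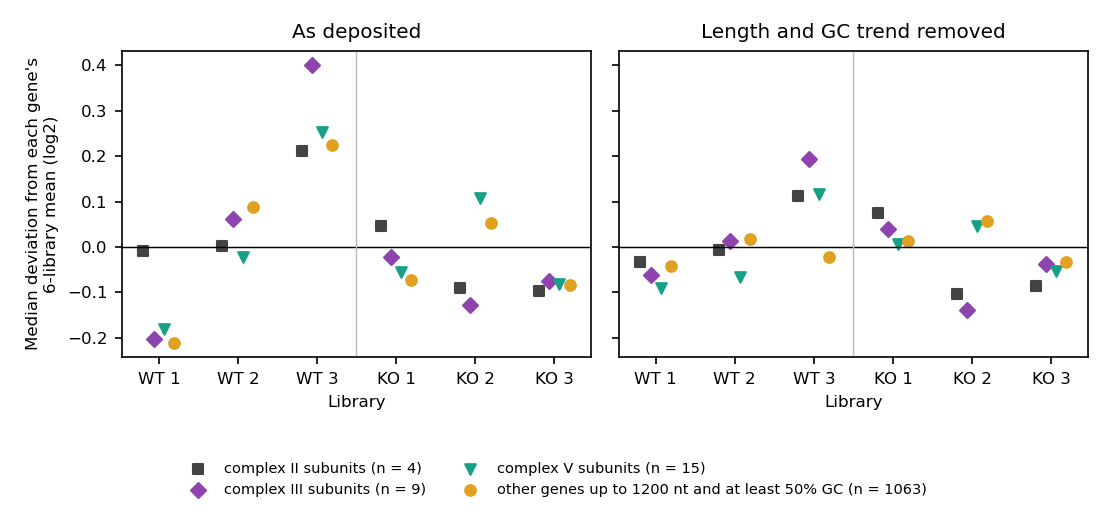
Median deviation of the subunits of complexes II, III and V, and of 1063 other genes of at most 1200 nt and at least 50% GC, from each gene's mean over the 6 libraries (y axis, log2), by library (x axis). Left, values as deposited; right, with each library's length and GC trend removed. On the left the 4 groups of genes are highest in WT replicate 3 and complex III spans −0.20 to 0.40; on the right it spans −0.14 to 0.19.

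Further genes of these complexes, from lists that the naming rule leaves out, were placed beside them. Of 5 complex III assembly factors, 0 passed in limma and 0 had an unadjusted p under 0.05. The 2 with the smallest p were Uqcc1, with 42.7 ± 2.43 FPKM in WT and 34.7 ± 4.46 FPKM in KO (SD, n = 3 each; limma, log2 fold change −0.30, adjusted p 0.304), and Ttc19, with 17.8 ± 2.01 and 19.6 ± 0.78 FPKM (0.13, adjusted p 0.645). Of 7 complex V assembly and regulatory genes, likewise 0 passed and 0 had an unadjusted p under 0.05. Of all tested genes 2.21% passed and 19.2% had an unadjusted p under 0.05, so lists this short say little. The F1 assembly chaperones Atpaf2 and Atpaf1 had log2 fold changes of −0.31 (limma, adjusted p 0.328) and −0.25 (limma, adjusted p 0.436). Atpif1, the inhibitor that stops ATP synthase from running backwards, measured 18.9, 27.0 and 24.6 FPKM across the WT libraries, against 24.8, 28.3 and 18.2 FPKM across the KO libraries, so the groups overlapped. The membrane subunits Usmg5 and 2010107E04Rik had WT means of 1024 ± 167 and 599 ± 99.4 FPKM, with KO means of 1006 ± 77.2 and 584 ± 69.9 FPKM (SD, n = 3 each).

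Of 10 tested regulators of mitochondrial gene expression, 0 passed and 3 had an unadjusted p under 0.05, Esrra, lower in KO, and Tfb2m and Ppargc1a, higher in KO, where 19.2% of all tested genes did. Esrra, the estrogen-related receptor that drives many genes of oxidative phosphorylation, measured 47.1, 58.8 and 65.3 FPKM across the WT libraries, against 37.7, 28.3 and 38.4 FPKM across the KO libraries. The groups did not overlap, and the log2 fold change was −0.70 (limma, SE 0.18, adjusted p 0.0813). Tfb2m, a mitochondrial transcription factor, had 33.7 ± 2.56 FPKM in WT and 46.9 ± 11.2 FPKM in KO (SD, n = 3 each; limma, log2 fold change 0.44, adjusted p 0.237). Ppargc1a, a coactivator of mitochondrial biogenesis, had 19.1 ± 3.98 FPKM in WT and 28.1 ± 7.48 FPKM in KO, with overlap (SD, n = 3 each; limma, log2 fold change 0.52, adjusted p 0.251).

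Ucp1 and Atp5b stand for the 2 ways by which protons return to the matrix. Atp5b was 0.616, 0.451 and 0.541 times as high as Ucp1 in WT and 1.03, 1.59 and 0.861 times as high in KO, with no overlap. On the log2 scale the ratio was 1.07 higher in KO. An exact permutation of the group labels over the 6 libraries gave a 2-sided p of 0.1. That is the smallest p that 3 against 3 libraries can give. The groups were already apart in Ucp1 alone, so this p is no separate result for Atp5b. Among single genes, the groups did not overlap in 24.9% of all tested. Ucp1 was at 5582 ± 1060 FPKM in WT and 2729 ± 960 FPKM in KO (SD, n = 3 each; limma, log2 fold change −1.08, adjusted p 0.0804), while the log2 fold change of Atp5b was −0.01.

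The promoters were read for the binding letters of 3 regulators of respiratory genes. RefSeq promoter windows of GRCm38.p6, from 250 bases before to 50 after an annotated start, were found for 30 of the 36 genes. The letters were settled after several spellings had been tried. Those of NRF1, GCGC and TGCGC parted by 1 base of any kind, on either strand, were in 11 of the 30 (36.7%) and in 8.70% of the 14754 genes of the table with a window. The GABP letters CCGGAAG were in 13 of 30 (43.3%), against 15.4%, and the letters TNAAGGTCA of estrogen-related receptors in 2 of 30 (6.70%), against 1.13%, both also on either strand. The 2 genes with the last motif were Atp5g3 and Sdhd. Of the c-ring genes, Atp5g2 and Atp5g3 held the NRF1 letters and Atp5g1 held none of the 3 motifs in its window. Windows of 30 bases are shown for the matches before the start in these genes, 5′ to 3′ on the gene's strand, with the match in capitals.
Atp5g2, NRF1, chr15:102671070-102671099, minus strand: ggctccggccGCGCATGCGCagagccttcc
Atp5g3, ERR, chr2:73911359-73911388, minus strand: tgttacaaagTGACCTTGAgcgtcttcccc
Sdhd, NRF1, chr9:50603909-50603938, minus strand: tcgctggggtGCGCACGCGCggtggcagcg
Sdhd, GABP, chr9:50603877-50603906, minus strand: ccgtctcctgcCTTCCGGttcacgcttcag
The matches end 32, 43, 69 and 39 bases before the annotated starts. The Atp5g3 window lies within the span of that gene, which reaches 73912464, so this annotated start is not its outermost one. The Atp5g2 and Sdhd windows shown lie outside the spans of their genes. A match of letters is a description and shows no binding, and a window without them says nothing of the factor. The 2 matches shown for Sdhd do not overlap.

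Other groups of mitochondrial genes held no call either. Of 45 tested genes named Nduf, of complex I, limma called 0, 2 had an unadjusted p under 0.05, and the median log2 fold change was −0.08. Of 16 genes named Cox4 to Cox8, of complex IV, it called 0 and 1 had an unadjusted p under 0.05, with a median of −0.01. Of 77 genes of the mitochondrial ribosome it also called 0, with a median of −0.17 and 13 at an unadjusted p under 0.05, all lower in KO. These 13 are 16.9% of the 77, near the 19.2% of all tested genes. No difference between these groups and the 36 genes was tested.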

How the data were processed

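RNA-seq of whole newborn interscapular brown fat gave 6 libraries, grouped by title as 3 WT and 3 KO. The deposited table holds FPKM, per the file headers, with 2 decimals. The submitters' processing notes name HISAT2 2.0.4, Bowtie2 2.2.5, DESeq2 and mm10, without roles; the counting program, annotation, strand handling and filters are not given in the sources used here.

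FPKM are not counts, so limma 3.58.1 (R 4.3.3) was run on log2(FPKM + 1) of the 13331 genes whose mean reached 0.5 FPKM (lmFit, eBayes with intensity trend, Benjamini-Hochberg over all of them, threshold 0.05). The fit was tested on simulated data. Genes given in full were any past the threshold, the 3 smallest p, the highest and the lowest of each complex, the c-ring genes, Cycs, Cyc1 and Bcs1l, and the 2 smallest p of each added list; genes named beyond this were chosen after their values were seen. The genes and lists were chosen with earlier results of these data known.

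Steps between low values of genes with 1 transcript of 500 to 1300 nt gave estimated depths of 14100000 to 14800000 reads per library (78.6% to 82.2% of values within 0.2 of a whole read, 41.1% to 48.3% with lengths shuffled). At that depth the thinnest of the 36 genes, Sdhaf4, rests on about 94 to 209 reads. These steps were not recovered for the whole table, so no count test was run. Lengths and GC came from GENCODE vM21, for 99.0% of tested genes, and can differ from the authors' models. Gene positions came from RefSeq on GRCm38.p6. Same-numbered WT and KO libraries deviated together at r = 0.068, 0.043 and 0.043 across genes, which does not settle whether they are pairs. The labels name no pairs, so the main fit used none and the replicate number was tried as a block. Alternatives were other pseudocounts, filters and scalings, eBayes without trend or robust, the replicate block, length and GC trends removed, and each library left out. Figures were drawn with matplotlib 3.10.9.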

Additional observations from a re-analysis of the deposited data

How the results depend on the processing

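Limma called 0 of the 36 genes in each of the 18 alternatives, with a lowest adjusted p of 0.0921, for Sdhaf1 without WT replicate 1; at an unadjusted p under 0.05 there were 0 to 6. Over all tested genes the count was 295 in the main fit. It was 35 with no filter on low values and 191 with a common FPKM sum. It was 538 with the length and GC trend removed, 372 with robust eBayes and 321 with a filter at 5 FPKM. Each smaller pseudocount gave 306. When each library was left out in turn the count was 31 to 370, lowest without WT replicate 3. Among those fits it rose above 295 only without WT replicate 1. The replicate block gave 167 genes, and 188 with the length and GC trend also removed; each WT library correlated best with the KO library of its number, at low values, a hint from the data and not from the design. The block changed no call among the 36. Leaving out each library in turn, the medians ran from −0.185 to −0.031 for complex II, from −0.332 to 0.027 for complex III and from −0.163 to 0.06 for complex V. Some genes turned direction. With all 6 libraries kept, up to 7 of the 36 turned, with main log2 fold changes of at most 0.114 in size. Without WT replicate 3, 10 of the 36 turned, with main values of up to 0.197 in size. Without WT replicate 1, 6 turned, with main values of up to 0.206 in size. Atp5g2 was at 0.028 with quantile normalization, 0.019 with a common sum and 0.102 with the trend removed, with or without the block. Atp5b was at 0.208, 0.023 and 0.03 in the same order. Sdhb was at 0.01 with a common sum and 0.071 with the trend removed, and Uqcrb at −0.013 with median-of-ratios scaling and −0.09 with the trend removed, both also with the block. Without 1 library Sdhaf3 ran from −0.011 to 0.394, Sdhb from −0.177 to 0.15, Uqcrb from −0.024 to 0.037, Atp5g2 from −0.185 to 0.165 and Atp5b from −0.068 to 0.097. The cause was not tested. Sdhaf4 ran from −0.636 to −0.247, Bcs1l from −0.419 to −0.202, Cycs from −0.26 to −0.131, Atp5a1 from −0.215 to −0.103, Sdhd from −0.286 to −0.148 and Atp5s from 0.129 to 0.39, each with 1 library left out. The median standard error over the 36 genes was 0.17.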
